A study of Mus musculus with 14 samples.

Results

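RNA-seq was used to compare uteruses of aged female mice injected with conditioned medium of human amniotic-membrane-derived mesenchymal stem cells (AMSC-CM) with uteruses of mice of the same age injected with saline. The comparison took 7 of the 14 libraries of the series, 4 from the old treatment (OT) group and 3 from the old control (OC) group, and the other 7 are ovaries of the same groups. All mice were C57BL/6J females of 28 weeks, and no transgene or deleted gene is named for them. The OT mice received AMSC-CM through the tail vein in 6 injections, 4 days apart, at 1 µL per g of body weight, and the OC mice received normal saline by vein, on a schedule not given in the sources used here. AMSC-CM is culture medium that holds what the cells secreted, and it was an equal mixture from 3 donors that had been concentrated, so the OT group stands for 1 preparation. Plain medium that had not been on cells was not among the injections, so the effect of the secreted factors and that of the medium cannot be told apart. Every mouse, controls included, had first been given pregnant mare serum gonadotropin (10 IU) and, 48 h later, human chorionic gonadotropin (10 IU). The sources used here speak of uterine tissue and do not name a layer, a horn or the cervix. Values are FPKM (fragments scaled to transcript length and to the size of the library), given in the order OC1 to OC3 and OT1 to OT4. A gene entered the test at a mean of at least 0.5 FPKM over the 7 uteruses, which 14151 of 21853 genes had. A gene below that limit in every uterus of 1 group passed only through the other group, which fixes the direction of its mean. Among the listed genes, Tnfrsf17 was just inside that limit at a mean of 0.517 FPKM and Sprr2b was just outside at 0.431 FPKM.

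The uterus is lined by a simple luminal epithelium that dips into the stroma as glands, and both are surrounded by the smooth muscle of the myometrium. In the cycle, estrogen drives the epithelium to grow, while progesterone acts through Indian hedgehog from the epithelium on patched and Gli factors in the stroma, which prepares the tissue for an embryo. The simple epithelium gives way to stratified squamous epithelium, with basal keratins below and other keratins above, towards the cervix and vagina, and fat, nerves, vessels and mesothelium lie at or near the outer surface. In bulk tissue, fewer cells of a type and less RNA per cell cannot be told apart.

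The 250 bases before the transcription start of 3 genes that the results below turn on are shown here, from RefSeq windows on GRCm38.p6, read 5′ to 3′ on the gene's strand. Sprr1a and Krt13 belong to squamous epithelium and rose in the OT uteruses, and Il13ra2, a stromal gene of the progesterone list, fell. Capitals mark the letters TGANTCA, the core to which AP-1 factors bind, and TATAAA, the TATA box, searched on both strands with no overlap between them. Sprr1a lies on chr3:92485882-92486131, minus strand. Krt13 lies on chr11:100121567-100121816, minus strand, and a second window of this gene is not printed. Il13ra2 lies on chrX:147429193-147429442, minus strand.
Sprr1a: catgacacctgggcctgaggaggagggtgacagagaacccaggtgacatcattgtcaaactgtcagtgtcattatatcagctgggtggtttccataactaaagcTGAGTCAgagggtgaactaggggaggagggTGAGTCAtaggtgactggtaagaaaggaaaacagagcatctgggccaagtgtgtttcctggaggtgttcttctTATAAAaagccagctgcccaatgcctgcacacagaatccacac
Krt13: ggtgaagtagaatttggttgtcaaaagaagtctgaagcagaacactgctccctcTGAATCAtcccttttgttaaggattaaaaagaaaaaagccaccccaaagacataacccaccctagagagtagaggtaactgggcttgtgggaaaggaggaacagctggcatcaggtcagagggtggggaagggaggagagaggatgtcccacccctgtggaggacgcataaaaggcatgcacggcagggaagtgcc
Il13ra2: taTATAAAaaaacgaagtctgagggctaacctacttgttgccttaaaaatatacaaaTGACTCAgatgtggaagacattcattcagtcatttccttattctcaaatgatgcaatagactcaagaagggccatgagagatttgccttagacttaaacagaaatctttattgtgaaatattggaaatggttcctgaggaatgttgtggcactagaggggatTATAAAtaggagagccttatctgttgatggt
The window of Sprr1a held 2 copies of TGANTCA and 1 of TATAAA, that of Krt13 held 1 copy of TGANTCA, and that of Il13ra2 held 1 copy of TGANTCA and 2 of TATAAA. The window of Adipoq, a white fat gene, was searched too, held neither and is not printed. Of all 32851 windows of this length, 6.75% held TGANTCA and 12.4% held TATAAA. Of the 16 squamous genes called higher by the cutoffs stated with the counts, 6 matched the table with 7 windows. Of these windows 3 (42.9%) held TGANTCA and 2 (28.6%) held TATAAA. The 3 were the window of Sprr1a and both windows of Krt13, so this share rests on the genes chosen for printing. Of the 22 white fat genes called higher, 17 matched with 23 windows, and 1 (4.35%) held TGANTCA. Of the 94 genes called lower, 78 matched with 98 windows, and 6 (6.12%) held TGANTCA. These are matches of letters in a short window and say nothing of binding.

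The 7 libraries had similar median FPKM, but OT1 stood apart from the others. The median FPKM lay between 3.49 and 4.09 and the 10 most abundant genes took between 9.54% and 12.7% of the total. OT1 had the highest total. Its correlations with the other libraries on the log2 scale were 0.862 to 0.915, against 0.930 to 0.977 between the others. Genes that mark the uterus were high in every library, with Hoxa10 between 138 and 236 FPKM and Esr1, the estrogen receptor, between 89.4 and 178 FPKM. Of ovarian genes, Zp3 and Fshr were listed at 0 in all 7, while Star, which steroid-making cells of several organs use, was between 3.15 and 6.81 FPKM. Several libraries stood apart in named sets of genes. OT1 held the most RNA of white fat, of brown fat and of urothelium, the lining of the bladder. OT2 had the highest summed RNA of B cells and macrophages. OT3 held the most summed RNA of squamous epithelium, followed by OT4 for the basal layer and by OT1 for the upper layers. OC1 differed from OC2 and OC3 in genes of the epithelium. No library contradicted its label.

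More genes were higher than lower after AMSC-CM, but no gene passed correction over all genes. A gene was called when it differed by 1 or more on the log2 scale, in either direction, with an unadjusted p no larger than 0.05 in limma, which are the cutoffs of the study on another test. By this rule 316 genes were called higher (2.23% of 14151) and 94 lower (0.664%). The groups did not overlap, with every OT uterus beyond every OC uterus, in 914 genes on the higher side (6.46%) and in 776 on the lower side (5.48%). No gene had a Benjamini-Hochberg adjusted p under 0.05 by limma, against 1160 genes at an unadjusted p under 0.05. The smallest adjusted p by limma was 0.266, for Ly6d, a surface protein of squamous epithelium. Adjusted p-values printed below are Benjamini-Hochberg values over all 14151 genes from limma. Rose and fell are used of genes that met the 2 cutoffs. The p-values measure the spread between these 7 mice. Across the tested genes the median difference was 0.01 on the log2 scale, against which the medians of gene lists are read.

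Libraries within a group were not alike. Of the 316 higher genes, OT1 was the highest OT uterus in 216, and the median log2 difference of OT1 from the OC mean was 2.86, against 1.41, 1.78 and 1.36 in OT2, OT3 and OT4. Of the 94 lower genes, OT1 was the lowest OT uterus in 61 and OT4 was the one nearest to the OC uteruses in 57. The median difference of the lower genes was -2.12 in OT1, and -1.41, -1.17 and -0.69 in the other OT uteruses in order. When each library was left out in turn, 148 of the 316 and 22 of the 94 kept their call in all 7 fits.

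**Figure D1:**
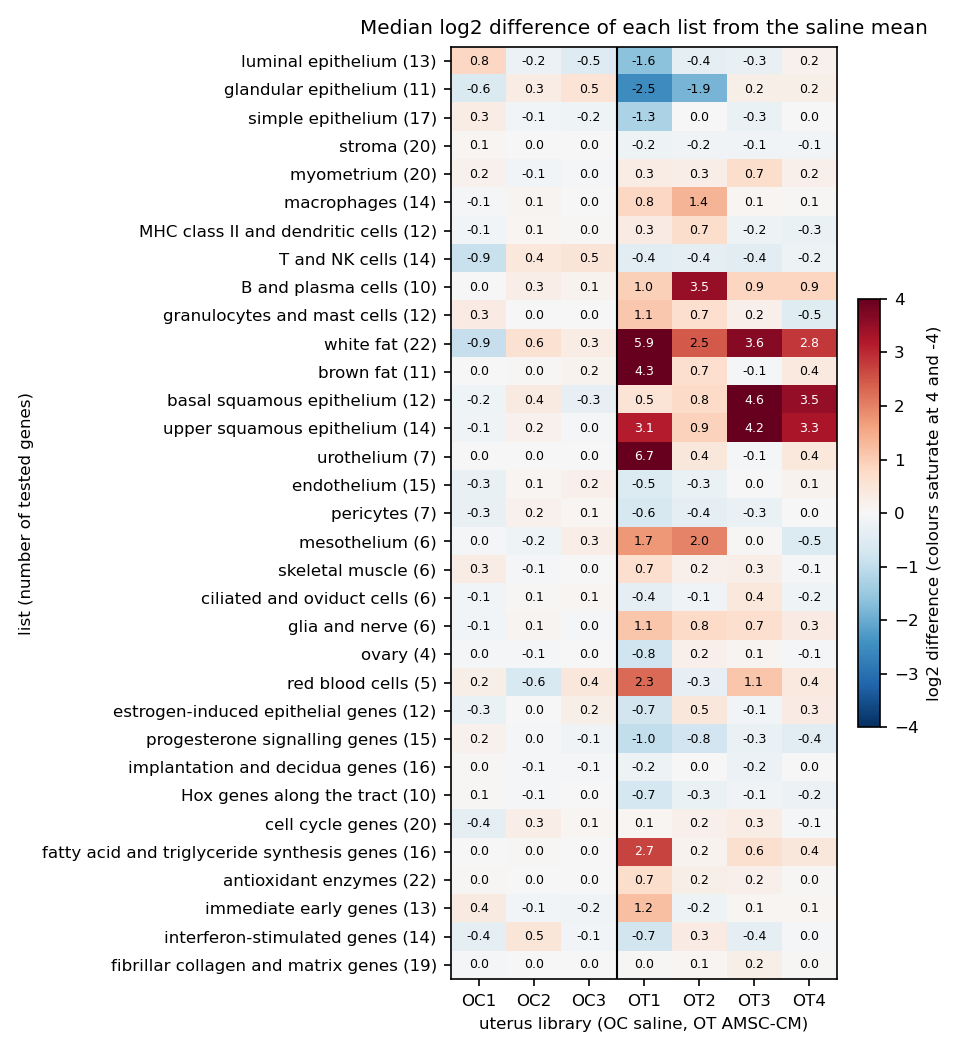
Median log2 difference of each gene list from the mean of the saline uteruses, for the 3 OC and 4 OT libraries (columns) and 33 lists (rows, with the number of tested genes). White fat was higher in all 4 OT libraries by a median of 2.45 to 5.94, urothelium reached 6.70 in OT1, and glandular epithelium was low in OT1 and OT2.

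Of 13 tested genes of the luminal epithelium, 1 rose and none fell. The median log2 fold change was -0.64, and 8 of 13 were below 0. Leaving out 1 library moved this median between -0.77 without OC3 and -0.02 without OC1. S100g, the intestinal-type calbindin and the most abundant gene of the list, was at 439, 1403 and 1143 FPKM in OC and 285, 189, 268 and 1175 FPKM in OT (log2 fold change -1.30 ± 0.65 (SE), adjusted p = 0.616). OT4 lay within the OC uteruses and the other OT uteruses lay below them.

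Calb1, a calcium-binding protein with the largest difference of the luminal list, was at 77.2, 14.4 and 6.04 FPKM in OC and 1.22, 11.7, 4.85 and 4.37 FPKM in OT (log2 fold change -2.14 ± 0.94 (SE), adjusted p = 0.599), and OC1 was far above the rest. Lrp2, the endocytic receptor megalin, was at 59.5, 5.04 and 4.92 FPKM in OC and 2.49, 7.83, 7.52 and 3.94 FPKM in OT. Lpar3, the lysophosphatidic acid receptor that acts at implantation, was at 28.7, 4.78 and 1.83 FPKM in OC and 0.571, 6.75, 3.62 and 3.07 FPKM in OT. In both genes the other OC uteruses lay among the OT uteruses. Msx1, a homeobox factor of the receptive epithelium, was at 91.7, 43.9 and 34.6 FPKM in OC and 8.46, 40.1, 27.5 and 31.3 FPKM in OT (log2 fold change -1.15 ± 0.55 (SE)), with OC1 highest and OT1 lowest. Ltf, lactoferrin, which estrogen induces, was at 189.9, 76.1 and 69.5 FPKM in OC and 24.2, 318, 187 and 149 FPKM in OT, and the groups overlapped. Areg did not pass the filter, being listed at 0 in 6 of the 7 uteruses.

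Glandular genes were low in OT1 and OT2 and near the OC level in OT3 and OT4. Of 11 tested genes, 1 fell and none rose. The median log2 fold change of the 11 was -0.78, and the median differences from the OC mean were -2.53, -1.87, 0.24 and 0.24 in OT1 to OT4. Leaving out 1 library moved the median fold change between -1.33 without OT4 and -0.32 without OC2. Sox9, a transcription factor of gland progenitors, was at 9.66, 12.3 and 21.4 FPKM in OC and 2.02, 3.27, 8.28 and 11.9 FPKM in OT and fell (log2 fold change -1.41 ± 0.59 (SE), adjusted p = 0.599). OT4 lay among the OC uteruses and OT3 just below them, and without OC2, OC3, OT1 or OT2 the log2 fold change was between -1.49 and -0.98 and the call was lost. Prom1, a membrane protein and the most abundant gene of the list, was at 60.8, 131 and 156 FPKM in OC and 18.6, 73.8, 57.4 and 129 FPKM in OT (log2 fold change -0.93 ± 0.62 (SE), adjusted p = 0.634). Foxa2, the factor that glands need to form, was at 1.38, 2.63 and 2.58 FPKM in OC and 0.438, 0.794, 3.39 and 2.31 FPKM in OT. Prss29, a protease of the glands, was at 0.891, 51.5 and 97.9 FPKM in OC and 2.44, 1.15, 16.8 and 72.4 FPKM in OT, so OC1 lay at the level of OT1 and OT2. Aldh1a1, a retinoic acid-forming enzyme, stood 0.84 higher on the log2 scale with groups that did not overlap, short of the cutoff of 1.

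The median of the genes common to simple epithelia was lowest in OT1. Of 17 tested genes, 1 fell, none rose and 11 were below 0, with a median of -0.52, or -0.19 without OT1. Cldn3, a tight junction protein, was at 284, 137 and 126 FPKM in OC and 28.4, 101, 75.4 and 127 FPKM in OT and fell (log2 fold change -1.23 ± 0.52 (SE), adjusted p = 0.599). OT4 lay within the OC uteruses, and without OC1, OC2, OT1 or OT3 the log2 fold change was between -1.38 and -0.78 and the call was lost. Epcam, an adhesion molecule of epithelial cells, was at 52.8, 59.8 and 68.4 FPKM in OC and 17.4, 39.7, 44.6 and 71.8 FPKM in OT. Cdh1, the cadherin of epithelial cell contacts, was at 53.6, 28.7 and 30.99 FPKM in OC and 10.8, 29.5, 25.2 and 32.7 FPKM in OT, with OT1 lowest in both. Spint2, a protease inhibitor and the most abundant of the list, was at 122, 147 and 151 FPKM in OC and 78.4, 162, 161 and 198 FPKM in OT and differed little (log2 fold change 0.02 ± 0.30 (SE)). Krt7, a keratin of simple epithelium, was higher in the OT uteruses without overlap (log2 fold change 0.80 ± 0.33 (SE)), but by less than 2-fold. Not every gene was lowest in OT1, as Krt7 and the claudin gene Cldn4 were highest there, at 40.8 and 20.02 FPKM. Cldn1, a further tight junction gene that was in no list and was chosen after its values were seen, was at 7.18, 11.4 and 6.08 FPKM in OC and 2.78, 2.71, 2.704 and 3.19 FPKM in OT and fell (log2 fold change -1.45 ± 0.23 (SE), adjusted p = 0.357). The groups did not overlap, and the call held in all 7 fits.

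**Figure D2:**
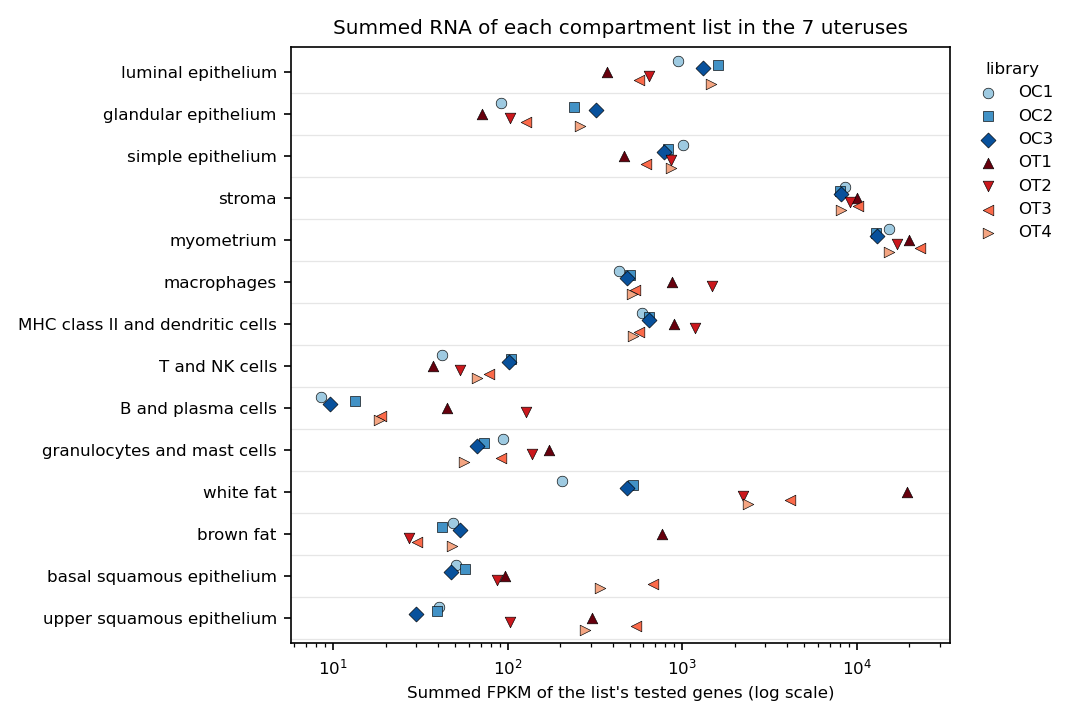
Summed FPKM of the listed genes of 14 compartment lists (rows, log axis) in each of the 7 uterus libraries, with 1 symbol per library. The sums also hold listed genes that failed the filter, though the axis label names tested genes only. White fat, squamous epithelium and B cells were higher in every OT library than in every OC library, while the epithelial sums of OT4 lay among those of the OC libraries.

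Of the 20 tested stromal genes none met both cutoffs. In 7 of them every OT uterus lay below every OC uterus, against 5.48% of all genes. An unadjusted limma p of 0.05 or less was reached by 6 of the 20 on the lower side, against 3.05% of all genes, and by none on the higher side, against 5.15%. The 7 were Hoxa10, Hoxa11, Wnt5a, Mme, Pdgfra, Nr2f2 and Esr1, each lower by less than 2-fold. Hoxa10, the homeobox gene that sets uterine identity and is needed for implantation, was at 236, 225 and 214 FPKM in OC and 138, 154, 186 and 180.3 FPKM in OT (log2 fold change -0.46 ± 0.14 (SE), adjusted p = 0.549). Its neighbour Hoxa11 was at 64.4, 67.7 and 73.2 FPKM in OC and 41.7, 43.6, 56.5 and 60.1 FPKM in OT (log2 fold change -0.45 ± 0.16 (SE), adjusted p = 0.55). In both genes the 4 OT uteruses lay below the 3 OC uteruses with little spread among the OC mice.

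Wnt5a, a Wnt ligand of the stroma, was at 78.8, 61.7 and 63.4 FPKM in OC and 27.6, 39.1, 43.9 and 42.8 FPKM in OT (log2 fold change -0.84 ± 0.19 (SE), adjusted p = 0.396). Mme, the peptidase neprilysin, was at 140.3, 64.7 and 56.6 FPKM in OC and 41.1, 33.5, 49.5 and 51.98 FPKM in OT (log2 fold change -0.88 ± 0.32 (SE)), with OC1 far above the other OC uteruses. Pdgfra, a growth factor receptor of fibroblasts, was -0.46 ± 0.16 (SE) and Nr2f2, the nuclear receptor COUP-TFII, -0.53 ± 0.20 (SE) on the log2 scale. Against these, Col3a1, the most abundant gene of the list, was at 1689, 1534 and 1596 FPKM in OC and 2267, 1892, 1969 and 1649.99 FPKM in OT (log2 fold change 0.27 ± 0.18 (SE)). The sum over the list, to which collagens contributed most, was 8593, 8040.3 and 8171 FPKM in OC and 10026, 9161, 10218 and 8176 FPKM in OT. Esr1, the estrogen receptor of stroma and epithelium, was at 178, 169 and 171 FPKM in OC and 89.4, 163, 142 and 165 FPKM in OT (log2 fold change -0.35 ± 0.22 (SE)). Pgr, the progesterone receptor, had a log2 fold change of -0.31 ± 0.28 (SE), with overlap. The median of the stromal list was -0.25 and moved between -0.15 without OT1 and -0.30 without OT4.

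Among genes of the progesterone and Hedgehog pathway, 2 of 15 tested fell and none rose. The groups did not overlap on the lower side in 4, against 5.48% of all genes. Gli1 (chr10:127329882-127341974, minus strand), the transcription factor that Hedgehog signalling switches on, was at 17.8, 18.4 and 13.7 FPKM in OC and 4.602, 5.71, 8.49 and 9.31 FPKM in OT (log2 fold change -1.27 ± 0.26 (SE), adjusted p = 0.357). Il13ra2 (chrX:147383476-147429192, minus strand), whose upstream sequence is given above, encodes the decoy receptor of interleukin-13 and was at 9.24, 8.32 and 7.92 FPKM in OC and 2.46, 2.06, 0.992 and 5.25 FPKM in OT (log2 fold change -1.85 ± 0.47 (SE), adjusted p = 0.485). In both genes every OT uterus lay below every OC uterus, and both calls held in all 7 fits. Ptch1, the Hedgehog receptor and itself a target of the pathway, was at 29.4, 23.7 and 22.1 FPKM in OC and 8.79, 12.4, 14.2 and 16.02 FPKM in OT (log2 fold change -0.98 ± 0.22 (SE)), just short of the cutoff and without overlap. The ligand Ihh was at 12.4, 1.82 and 1.12 FPKM in OC and 1.97, 1.13, 2.45 and 1.25 FPKM in OT, with OC1 far above the rest and OC2 and OC3 among the OT uteruses. The median over the list was -0.59. Hand2, a stromal progesterone target, was -0.54 ± 0.25 (SE) on the log2 scale, while Fkbp5 was 0.03 ± 0.19 (SE). Areg was again left out by the filter.

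Hox genes set position along the reproductive tract. Of 10 tested, 1 rose and none fell. On the lower side 5 did not overlap, against 5.48% of all genes. They were Hoxa9, Hoxa10, Hoxa11, Hoxd9 and Hoxd10, each lower by less than 2-fold. Hoxd9 was at 39.7, 32.4 and 32.1 FPKM in OC and 13.5, 25.3, 25.1 and 28.8 FPKM in OT (log2 fold change -0.63 ± 0.26 (SE), adjusted p = 0.596). Hoxa9 was at 29.2, 27.8 and 27.4 FPKM in OC and 11.9, 21.1, 22.3 and 26.5 FPKM in OT, with OT1 lowest in both. Hoxa13, which is used in the cervix and vagina, was at 0.443, 0.609 and 1.98 FPKM in OC and 6.6998, 0.958, 7.55 and 2.47 FPKM in OT and rose (log2 fold change 1.89 ± 0.76 (SE), adjusted p = 0.589). OT1 and OT3 were high and OT2 lay among the OC uteruses, and without OC1, OC2, OT1 or OT3 the log2 fold change was between 1.51 and 1.70 and the call was lost. Hoxd13, expressed at the same end of the tract, was listed at 0 in 6 uteruses and at 0.140 FPKM in OT1, and Hoxd12 was listed at 0 in all. Hoxa13 and the squamous keratins below were both high in OT3, and the part of the sampled position along the tract in these results was not tested.

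Genes that estrogen induces in the epithelium and genes of implantation gave no call. None of 12 tested estrogen-induced genes and none of 16 implantation genes met the cutoffs, with medians of -0.11 and 0.01. C3, complement component 3 and the most abundant of the first list, was at 246, 331 and 271 FPKM in OC and 479.9, 1096, 245 and 274 FPKM in OT (log2 fold change 0.63 ± 0.48 (SE)), with OT2 far above the rest. Lif, the cytokine without which embryos do not implant, was at 1.29, 0.539 and 1.39 FPKM in OC and 1.39, 0.861, 1.196 and 1.17 FPKM in OT. Fgf2 and Ptges, a growth factor and a prostaglandin E synthase, were higher in the OT uteruses without overlap, by 0.74 ± 0.32 (SE) and 0.80 ± 0.34 (SE) on the log2 scale, both short of 2-fold. On the lower side 4 genes did not overlap, Hoxa10 and Hoxa11, which the stromal list also holds, and Stat3 and Il6st, which carry the Lif signal. Stat3 and Il6st had log2 fold changes of -0.21 ± 0.11 (SE) and -0.37 ± 0.23 (SE). Over all genes the groups did not overlap in 6.46% on the higher side and in 5.48% on the lower side.

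Of 20 tested genes of the myometrium none met both cutoffs, but 17 were above 0 with a median of 0.31. In 5 of them every OT uterus lay above every OC uterus, against 6.46% of all genes. They were the contractile genes Des, Actg2, Cnn1 and Tagln and the receptor gene Oxtr. Oxtr, the oxytocin receptor, was at 11.3, 8.24 and 9.24 FPKM in OC and 25.4, 12.02, 17.1 and 16.2 FPKM in OT (log2 fold change 0.84 ± 0.25 (SE), adjusted p = 0.532). Des, the muscle intermediate filament desmin, was at 711, 620.4 and 596 FPKM in OC and 1096, 784, 1230.1 and 822 FPKM in OT (log2 fold change 0.59 ± 0.20 (SE), adjusted p = 0.55). Tagln, an actin-binding protein and the most abundant of the list, was at 2990.4, 2607 and 2725 FPKM in OC and 4149.6, 3799.6, 4489 and 3132 FPKM in OT (log2 fold change 0.48 ± 0.20 (SE), adjusted p = 0.599). OT3 was highest in Des and Tagln, and OT1 in Oxtr. The list summed to 15290.3, 12815 and 13066 FPKM in OC and 19984, 17058, 23015 and 15363 FPKM in OT, with OT3 highest. Scaling each library to its total outside the fat, squamous and urothelium lists gave medians of -0.109 for all genes and 0.19 for the myometrium list. With quantile normalization these medians were -0.029 and 0.13. Myocd, the master regulator of the smooth muscle program, was at 20.5, 13.6 and 18.5 FPKM in OC and 11.9, 14.98, 23.6 and 17.9 FPKM in OT, with overlap.

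**Figure D3:**
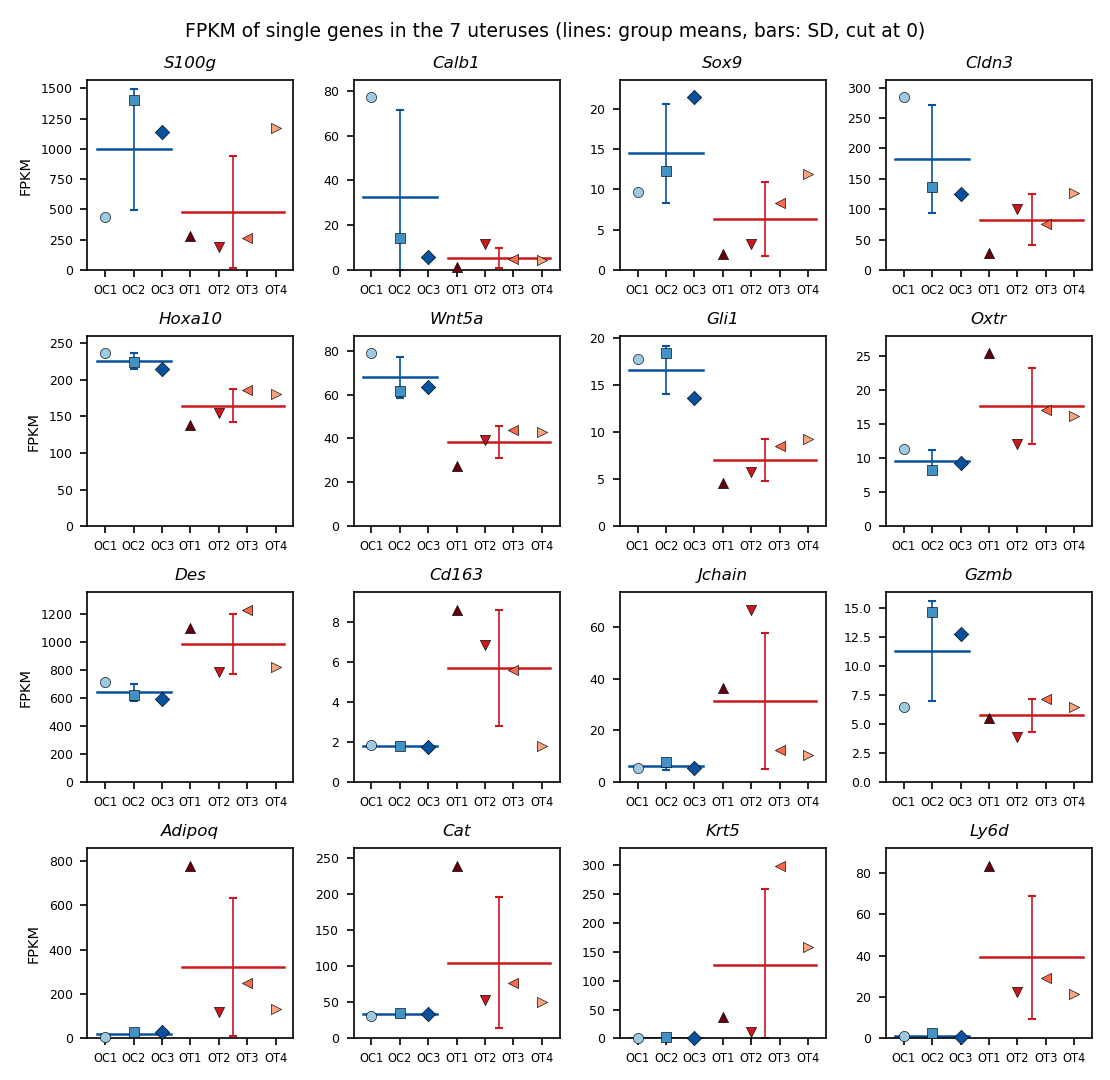
FPKM (linear axes from 0) of 16 genes of the epithelium, stroma, myometrium, immune cells, fat and squamous epithelium in the 3 OC and 4 OT libraries, with group means (lines) and SD (bars). Hoxa10, Wnt5a and Gli1 were lower in all 4 OT uteruses, whereas Adipoq and Cat were highest in OT1 and Krt5 in OT3.

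Immune cells differed by type. Of 10 tested genes of B and plasma cells, 5 rose and all 10 were above 0, with a median of 1.58. Among them Ms4a1, Pou2af1 and Tnfrsf17 were below the limit of the filter in every OC uterus. They passed it only through OT values, which fixes the direction of their mean FPKM. Of 14 macrophage genes 1 rose, with a median of 0.65. T and NK cell genes gave no call, with a median of -0.44 and 10 of 14 below 0, and genes of MHC class II and dendritic cells had a median of 0.11. Jchain, which joins secreted IgA and IgM, was at 5.44, 7.77 and 5.44 FPKM in OC and 36.5, 66.6, 12.3 and 10.5 FPKM in OT (log2 fold change 1.94 ± 0.61 (SE), adjusted p = 0.55). Pou2af1, a coactivator of B cells, was at 0.266, 0.0754 and 0.169 FPKM in OC and 1.38, 12.5, 0.549 and 1.16 FPKM in OT (log2 fold change 2.94 ± 0.94 (SE), adjusted p = 0.55). Ms4a1, the B cell antigen CD20, was at 0.0432, 0 and 0.112 FPKM in OC and 0.422, 5.99, 0.4303 and 0.547 FPKM in OT (log2 fold change 2.82 ± 0.96 (SE), adjusted p = 0.55). In all 3 every OT uterus lay above the OC uteruses and OT2 was highest. The calls of Jchain and Pou2af1 held in all 7 fits, and that of Ms4a1 was lost without OC2 (log2 fold change 2.55). Summed over the list, B and plasma cell genes were at 8.55, 13.3 and 9.53 FPKM in OC and 44.8, 127, 18.8 and 18.3 FPKM in OT. Without OT2, 4 of the 10 genes were called higher, and without OC2 or OC3, 3 were. Cd79a and Cd79b, both parts of the B cell receptor, also rose, Cd79b with 1.62 ± 0.55 (SE) and Cd79a with 1.64 ± 0.70 (SE). For Cd79b, without OC3 the log2 fold change was 1.41 and the call was lost. For Cd79a, without OC1, OC2, OC3, OT2, OT3 or OT4 the log2 fold change was between 1.0044 and 1.80 and the call was lost. Pax5 did not pass the filter.

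The summed macrophage RNA was highest in OT2 and then in OT1, at 435, 501 and 479.8 FPKM in OC and 871, 1484, 535 and 514 FPKM in OT. Cd163, the scavenger receptor for haemoglobin on tissue macrophages, was at 1.88, 1.83 and 1.79 FPKM in OC and 8.64, 6.88, 5.602 and 1.81 FPKM in OT and rose (log2 fold change 1.39 ± 0.48 (SE), adjusted p = 0.55). OT4 lay at the OC level, and without OT2 the log2 fold change was 1.24 and the call was lost. Lyz2, lysozyme and the most abundant of the list, was at 119, 162 and 156 FPKM in OC and 269.6, 652, 184 and 151 FPKM in OT (log2 fold change 0.87 ± 0.46 (SE), adjusted p = 0.623). Adgre1, the antigen F4/80, was at 11.5, 14.02 and 12.3 FPKM in OC and 23.6, 32.3, 13.4 and 28.1 FPKM in OT (log2 fold change 0.87 ± 0.28 (SE)). Itgam, an integrin of myeloid cells, was at 6.83, 8.0995 and 6.75 FPKM in OC and 11.5, 14.4, 8.67 and 13.5 FPKM in OT (log2 fold change 0.70 ± 0.20 (SE)). Aif1 was at 6.38, 8.398 and 8.33 FPKM in OC and 12.3, 15.8, 7.39 and 13.4 FPKM in OT (log2 fold change 0.62 ± 0.26 (SE)). In these 3 genes OT2 was highest and OT4 second, so the order of the sums was not that of each gene. Without OT3 and OT4, an alternative added after the data had been seen, 8 of the 14 genes were called higher, against 0 without OT2. Cd74, the invariant chain of MHC class II, was at 206, 227 and 224 FPKM in OC and 317, 414, 209 and 189 FPKM in OT (log2 fold change 0.29 ± 0.27 (SE)).

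The 14 tested T and NK cell genes gave no call in either direction. Gzmb, granzyme B, was at 6.46, 14.7 and 12.8 FPKM in OC and 5.503, 3.904, 7.21 and 6.49 FPKM in OT (log2 fold change -0.91 ± 0.32 (SE), adjusted p = 0.55). Prf1, perforin, was at 2.05, 6.89 and 6.44 FPKM in OC and 1.53, 1.81, 2.23 and 3.51 FPKM in OT. Ncr1, a receptor of NK cells, was at 4.29, 11.98 and 13.3 FPKM in OC and 3.71, 3.33, 5.53 and 6.48 FPKM in OT. In all 3 OC2 and OC3 stood above every OT uterus and OC1 lay among the OT uteruses. Nkg7, a granule protein and the most abundant of the list, was at 15.1, 31.7 and 31.6 FPKM in OC and 7.09, 18.2, 39.98 and 25.1 FPKM in OT with overlap. The 4 genes above 0 were of T cells, Cd3d, Cd3g, Cd2 and Cd5, with log2 fold changes of 1.19 ± 0.75 (SE), 0.66 ± 0.43 (SE), 0.61 ± 0.56 (SE) and 0.11 ± 0.59 (SE), and Cd3e was at -0.62 ± 0.73 (SE). Outside the lists, and chosen after their values were seen, Tigit, an inhibitory receptor of T and NK cells, was at 1.91, 2.51 and 3.54 FPKM in OC and 0.466, 0.842, 0.742 and 1.42 FPKM in OT and fell (log2 fold change -1.56 ± 0.40 (SE), adjusted p = 0.485), with no overlap and a call in all 7 fits. Xcl1, a chemokine that these cells secrete, was at 7.002, 13.4 and 13.01 FPKM in OC and 6.21, 2.92, 4.83 and 5.07 FPKM in OT and fell (log2 fold change -1.20 ± 0.32 (SE), adjusted p = 0.485), and without OT2 the log2 fold change was -0.99 and the call was lost. Cd8a and Cd8b1 were below the filter. The mast cell protease Cma1 was at 25.3, 17.1 and 17.5 FPKM in OC and 32.7, 43.998, 17.7 and 10.8 FPKM in OT and overlapped. Ccr3, the eotaxin receptor, was at 0.644, 0.175 and 0.468 FPKM in OC and 4.56, 0.905, 1.24 and 0.986 FPKM in OT and rose (log2 fold change 1.73 ± 0.63 (SE), adjusted p = 0.556), with OT1 highest, and without OC2 the log2 fold change was 1.31 and the call was lost. It was the only call among 12 tested genes of granulocytes and mast cells, 7 of the 19 listed genes having failed the filter.

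All 22 listed genes of white fat were tested and all 22 rose, with a median log2 fold change of 3.67. In 21 the groups did not overlap on the higher side, against 6.46% of all genes. Among the 22, Klb was below the filter limit in every OC uterus. It passed only through OT values, which fixes the direction of its mean. The list was chosen with earlier results of these data known, and the study had reported many of its members as higher. These counts are therefore a description. Summed over the list, white fat genes were at 205, 523 and 481 FPKM in OC and 19351, 2220.2, 4132 and 2369 FPKM in OT. Against the OC mean, the sums were 48.03 times as high in OT1, 5.51 times in OT2, 10.3 times in OT3 and 5.88 times in OT4. OT1 thus stood far above the other OT uteruses, and OC1 was below OC2 and OC3. Without OT1, 21 of the 22 genes were still called higher, and the one lost was Pck1, for which without OC1, OT1 or OT3 the log2 fold change was between 2.27 and 3.35 and the call was lost. Fat cells within and around the uterus cannot be told apart here, and the amount of fat left on each sample is not given in the sources used here.

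Adipoq (chr16:23146536-23158028, plus strand), the hormone adiponectin of fat cells, was at 8.396, 26.8 and 28.6 FPKM in OC and 777, 117, 251 and 133 FPKM in OT (log2 fold change 3.65 ± 0.70 (SE), adjusted p = 0.357). Slc7a10, an amino acid transporter of white fat cells, had the largest change of the list and was at 0.09002, 0.7299 and 0.894 FPKM in OC and 56.8, 9.05, 13.5 and 8.02 FPKM in OT (log2 fold change 4.84 ± 0.80 (SE), adjusted p = 0.357). Plin1, which coats lipid droplets, rose by 4.27 ± 0.82 (SE) and Cidec, which helps them fuse, by 4.19 ± 0.79 (SE) on the log2 scale. In these 4 genes OT1 was highest and OT3 next, and OT2 and OT4 lay below them but above every OC uterus. Klb, the coreceptor of fibroblast growth factor 21 in fat and liver, was at 0.0349, 0.335 and 0.308 FPKM in OC and 21.998, 1.795, 3.24 and 2.06 FPKM in OT (log2 fold change 3.86 ± 0.88 (SE), adjusted p = 0.396). Car3, a carbonic anhydrase and the most abundant gene of the list over the 7 uteruses, was at 34.9, 128 and 109 FPKM in OC and 5036, 639, 1234 and 710.3 FPKM in OT (log2 fold change 4.04 ± 0.76 (SE), adjusted p = 0.357). Lep, the hormone leptin, followed a different order of libraries, at 0.752, 3.02 and 1.55 FPKM in OC and 34.02, 6.29, 32.2 and 21.6 FPKM in OT, with OT1 and OT3 nearly equal. Thrsp, a lipogenic factor, was at 22.6, 6.78 and 5.58 FPKM in OC and 443, 29.9, 24.4 and 38.7 FPKM in OT, and here OC1 was the highest OC uterus and OT3 lay close to it. For Thrsp, without OC2 or OC3 the log2 fold change was between 2.25 and 2.39 and the call was lost. The other fat genes named here with values kept their calls in all 7 fits.

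Brown fat RNA was seen in OT1. Ucp1, the uncoupling protein that makes heat, was at 0, 0 and 0 FPKM in OC and 209.9, 0, 0.112 and 0 FPKM in OT. Cidea, a lipid droplet protein of brown fat, was at 0.116, 0 and 0.291 FPKM in OC and 70.5, 0.512, 0.144 and 0.518 FPKM in OT. Cox8b, a cytochrome oxidase subunit of brown fat and muscle, was at 3.42, 2.41 and 1.701 FPKM in OC and 339.7, 2.26, 7.26 and 4.3998 FPKM in OT. None of the 3 was called, and OT2 to OT4 lay near the OC level. Ucp1 and Cidea were below the filter limit in every OC uterus and passed only through OT values. Of 11 tested genes 1 was called, which fell, and the median was 1.30, or 0.36 without OT1. The medians per library were 4.34, 0.69, -0.07 and 0.39 in OT1 to OT4. The summed FPKM of the brown fat list was 48.6, 41.8 and 52.996 FPKM in OC and 765, 27.2, 30.1 and 47.7 FPKM in OT. The 1 called gene was Dio2, the deiodinase that activates thyroid hormone, which was at 39.4, 28.6 and 39.5 FPKM in OC and 13.1, 11.3, 13.4 and 30.4 FPKM in OT and fell (log2 fold change -1.17 ± 0.33 (SE), adjusted p = 0.503). OT4 lay among the OC uteruses and the other OT uteruses below them. The call held in all 7 fits.

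Enzymes of fatty acid and triglyceride synthesis were high in OT1. Of 16 tested genes, 3 rose, none fell and 7 did not overlap on the higher side, against 6.46% of all genes. The median of the list was 0.95, or 0.50 without OT1. The medians per library were 2.69, 0.15, 0.65 and 0.44 in OT1 to OT4. Scd1, a fatty acid desaturase, was at 30.3, 67.5 and 75.4 FPKM in OC and 4405, 64.9, 319 and 514 FPKM in OT (log2 fold change 3.12 ± 1.21 (SE), adjusted p = 0.573). OT2 lay among the OC uteruses, and without OC1, OC2, OC3 or OT4 the log2 fold change was between 2.70 and 3.36 and the call was lost. Agpat2, an acyltransferase, was at 14.6, 11.6 and 12.2 FPKM in OC and 269.5, 21.9, 31.6 and 30.6 FPKM in OT (log2 fold change 1.93 ± 0.78 (SE), adjusted p = 0.593) and Dgat1, which catalyses the last step of triglyceride synthesis, rose by 1.32 ± 0.52 (SE). For Agpat2, without OC1, OC2 or OC3 the log2 fold change was between 1.86 and 2.03 and the call was lost. For Dgat1, without OC1, OC2, OC3, OT1 or OT3 the log2 fold change was between 0.79 and 1.41 and the call was lost. Fasn, fatty acid synthase, was at 71.2, 42.5 and 46.97 FPKM in OC and 944, 50.1, 92.6 and 113 FPKM in OT, not called, with OT2 at the OC level. The sums of the white fat list and of this list were both highest in OT1. In OT2 the white fat sum was 5.51 times the OC mean, and the sum of this list was 0.948 times. The part of white fat in the result was not tested.

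Among antioxidant enzymes 2 of 22 tested rose and none fell. Sod3, the extracellular superoxide dismutase, was at 1.25, 2.15 and 2.23 FPKM in OC and 14.1, 5.15, 7.71 and 3.93 FPKM in OT (log2 fold change 1.86 ± 0.43 (SE), adjusted p = 0.412), with no overlap and a call in all 7 fits. Cat, catalase, was at 31.2, 34.9 and 34.1 FPKM in OC and 239.8, 52.9, 76.4 and 51.03 FPKM in OT (log2 fold change 1.33 ± 0.50 (SE), adjusted p = 0.564). All OT uteruses lay above the OC uteruses, OT1 by far the most, and without OC1, OC2, OC3 or OT1 the log2 fold change was between 0.82 and 1.36 and the call was lost. Gpx1, a glutathione peroxidase and the most abundant of the list, was at 730.3, 662 and 739 FPKM in OC and 1477, 894, 1162 and 712 FPKM in OT (log2 fold change 0.53 ± 0.25 (SE), adjusted p = 0.609), with OT4 at the OC level. Gpx4 was at 119, 123 and 121 FPKM in OC and 396, 166, 165 and 128 FPKM in OT, Prdx5 was higher by 0.45 ± 0.20 (SE), and Gpx2, a peroxidase of epithelium, was at 24.7, 38.2 and 48.7 FPKM in OC and 7.71, 7.68, 35.9 and 32.4 FPKM in OT with a log2 fold change of -1.14 ± 0.61 (SE). The median of the list was 0.31, or 0.18 without OT1, and its medians per library were 0.70, 0.22, 0.19 and 0.04 in OT1 to OT4. The OT library with the most fat RNA, whose white fat sum was 19351 FPKM, was also the one with the most antioxidant RNA, at 4103 FPKM against 2401 to 2869.7 FPKM in the others, and the part of fat in this was not tested.

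Keratins of stratified squamous epithelium had the largest increases, Krt5, Krt6a and Krt13 ranking first among all 14151 tested genes. Of 12 tested genes of the basal layer 7 rose, with a median of 2.66, and of 14 tested genes of the upper layers 9 rose, with a median of 2.85. Another 14 of the 28 listed upper genes failed the filter. Of those tested, Krt6a and Lypd3 were below its limit in every OC uterus and passed only through OT values. Krt5 (chr15:101707070-101712898, minus strand), the basal keratin, was at 0.457, 2.81 and 0.357 FPKM in OC and 37.1, 11.7, 299 and 159 FPKM in OT (log2 fold change 6.22 ± 1.13 (SE), adjusted p = 0.357). Its partner Krt14 was at 0.277, 0.7298 and 0.255 FPKM in OC and 9.12, 2.66, 60.2 and 25.9 FPKM in OT (log2 fold change 4.88 ± 0.95 (SE), adjusted p = 0.357). Krt15, a further basal keratin, was at 0.548, 0.7298 and 0.167 FPKM in OC and 2.82, 4.25, 141 and 46.1 FPKM in OT (log2 fold change 5.02 ± 1.31 (SE), adjusted p = 0.485). OT3 and OT4 stood far above, OT1 and OT2 lower but still above every OC uterus. Trp63, the transcription factor p63 of basal cells, was at 0.331, 0.774 and 0.263 FPKM in OC and 4.396, 0.776, 10.1 and 4.902 FPKM in OT, and OT2 lay at the OC level (log2 fold change 2.87 ± 0.78 (SE)). The calls of Krt5, Krt14, Krt15, Trp63 and Pkp1 held in all 7 fits. Of the others, Pkp1 of the desmosome rose by 3.90 ± 1.17 (SE), Col17a1 of the hemidesmosome by 2.85 ± 1.17 (SE) and Perp by 1.20 ± 0.43 (SE). For Col17a1, without OC1, OC2, OC3, OT3 or OT4 the log2 fold change was between 1.96 and 3.00 and the call was lost. For Perp, without OC1, OC3, OT3 or OT4 the log2 fold change was between 0.85 and 1.17 and the call was lost. Itgb4, an integrin that simple epithelium shares, was -0.22 on the log2 scale.

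Genes of the upper layers differed among themselves in level and in the order of the libraries. Krt13, whose upstream sequence is printed above, was at 1.86, 5.103 and 0.423 FPKM in OC and 29.7, 19.6, 287 and 132 FPKM in OT (log2 fold change 5.30 ± 1.06 (SE), adjusted p = 0.357). Krt4, its partner, was at 0, 0.871 and 0.209 FPKM in OC and 1.89, 1.39, 27.99 and 9.997 FPKM in OT (log2 fold change 4.11 ± 1.15 (SE), adjusted p = 0.499). Krt6a, induced in activated squamous cells, was at 0.0522, 0.428 and 0 FPKM in OC and 6.94, 1.25, 32.5 and 17.9 FPKM in OT (log2 fold change 5.43 ± 1.07 (SE), adjusted p = 0.357). All 3 were highest in OT3 and then in OT4. Sprr1a, a precursor of the cell envelope, followed another order, at 0.827, 1.67 and 1.09 FPKM in OC and 139, 7.39, 80.99 and 39.6 FPKM in OT (log2 fold change 5.10 ± 0.88 (SE), adjusted p = 0.357), with OT1 highest. Ly6d was likewise highest in OT1, at 1.17, 2.47 and 0.593 FPKM in OC and 83.6, 22.3, 29.1 and 21.7 FPKM in OT (log2 fold change 4.65 ± 0.57 (SE), adjusted p = 0.266). Lypd3 was listed at 0 in the OC uteruses and in OT2, and at 1.53, 5.41 and 2.07 FPKM in OT1, OT3 and OT4, and its call was lost without OT3 or OT4. The calls of Krt13, Krt4, Krt6a, Sprr1a, Ly6d and Evpl held in all 7 fits, and those of Krt6b and Calml3 did not. For Krt6b, without OC3 or OT3 the log2 fold change was between 2.29 and 2.60 and the call was lost. For Calml3, without OC1, OC2, OT3 or OT4 the log2 fold change was between 1.94 and 2.66 and the call was lost. Krt10, a keratin of cornified epithelium, was at 3.22, 3.18 and 4.01 FPKM in OC and 4.89, 3.29, 4.58 and 2.52 FPKM in OT and Sbsn, suprabasin, at 8.01, 9.904 and 9.52 FPKM in OC and 11.5, 14.8, 9.64 and 8.07 FPKM in OT, neither called. Flg, Sprr3, Cnfn, Crct1 and Sprr1b were listed at 0 in all 7 uteruses, and Krt1 and Lor did not exceed 0.386 FPKM in any.

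The squamous increase held in part without OT3, OT4 or both, the libraries with the highest basal sums. Leaving out OT3 gave 5 called basal and 6 called upper genes, and leaving out OT4 gave 5 and 7. Leaving out both, an alternative added after the data had been seen, gave 3 of 12 basal and 5 of 14 upper genes, with a basal median of 0.72. The summed FPKM of the basal list was 50.9, 57.3 and 47.1 FPKM in OC and 96.3, 86.96, 682 and 337 FPKM in OT, and that of the upper list was 40.2, 39.4 and 29.8 FPKM in OC and 306, 103, 545 and 277 FPKM in OT. In both lists every OT sum was above every OC sum. Sums of simple epithelium did not rise in OT3, at 621 FPKM against 788 to 1014 FPKM in the OC uteruses.

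**Figure D4:**
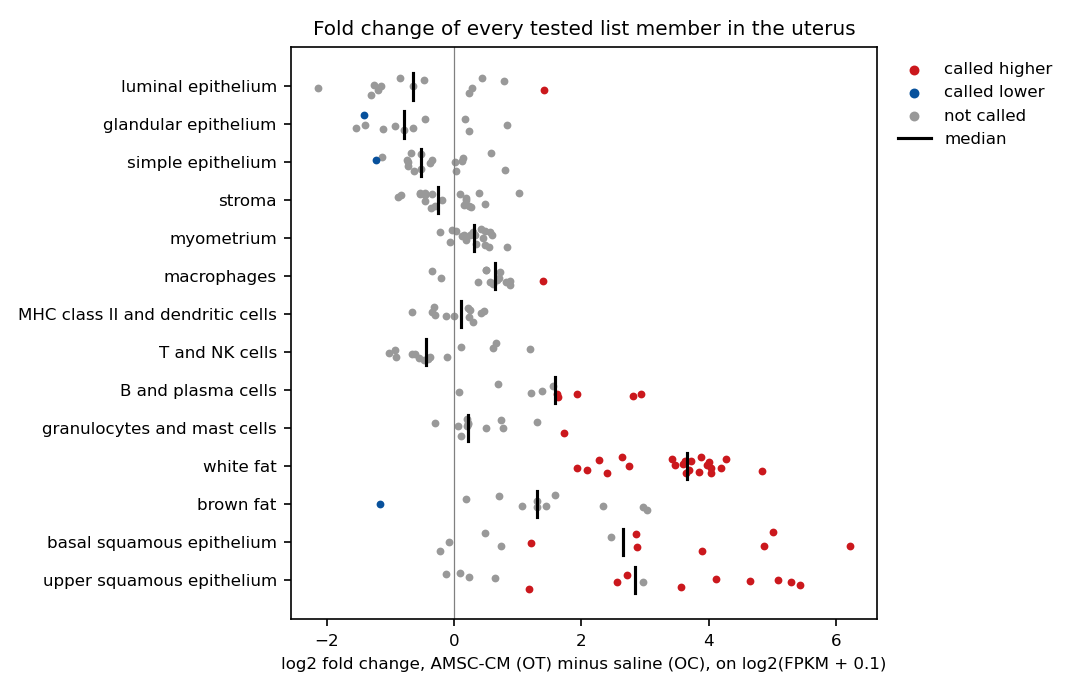
Log2 fold change (AMSC-CM minus saline, on log2 of FPKM + 0.1) of every tested gene of 14 compartment lists, coloured by whether it was called higher, called lower or not called, with the list median as a black bar. All 22 white fat genes and 16 squamous genes were called higher, while stromal and myometrial genes gave no call.

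Markers of other tissues in and beside the uterus were measured as well. Psca, a surface antigen of the bladder lining, was listed at 0 in the OC uteruses and at 32.1, 1.20, 0.218 and 0.447 FPKM in OT1 to OT4, and was the 1 called gene of 7 in the urothelium list. The call was lost without OC1, OC2 or OC3. Upk3a, a uroplakin that marks urothelium, was listed at 0 except in OT1, where it was at 48.7 FPKM. The list summed to 8.35, 5.24 and 6.39 FPKM in OC and 208, 26.5, 5.45 and 5.17 FPKM in OT, so OT1 stood apart. Mesothelial genes, of the outer surface, were high in OT1 and OT2, where Msln, mesothelin, was at 8.38, 7.48 and 11.7 FPKM in OC and 27.4, 43.2, 9.49 and 4.93 FPKM in OT. Bnc1 was the 1 called gene of 6, at 1.86, 1.62 and 2.61 FPKM in OC and 6.99, 6.76, 3.35 and 1.98 FPKM in OT, and without OC1, OC2, OC3, OT1, OT2 or OT3 the log2 fold change was between 0.81 and 1.23 and the call was lost. Wt1, which stroma shares, differed little (log2 fold change -0.08 ± 0.13 (SE)). All 6 tested genes of glia and nerve were above 0. The sum of the 8 listed genes was 14.5, 17.6 and 17.2 FPKM in OC and 30.8, 23.9, 21.9 and 20.3 FPKM in OT, higher in each OT uterus than in any OC uterus. Uchl1, an enzyme of neurons, was at 2.83, 2.46 and 2.39 FPKM in OC and 9.27, 4.69, 3.78 and 3.13 FPKM in OT (log2 fold change 0.88 ± 0.35 (SE)), and Mbp, a myelin protein, had a log2 fold change of 0.48 ± 0.19 (SE). The 1 called gene, S100b, a calcium-binding protein of glia and fat cells, was at 0.326, 0.497 and 0.412 FPKM in OC and 3.25, 0.934, 1.37 and 0.507 FPKM in OT and rose (log2 fold change 1.39 ± 0.58 (SE), adjusted p = 0.599), and without OC1, OC2, OC3, OT1, OT2 or OT3 the log2 fold change was between 0.94 and 1.51 and the call was lost. Psca, Upk3a and S100b were below the filter limit in every OC uterus. They passed only through OT values, which fixes the direction of their mean. The part of urothelium, mesothelium and nerve in the other results was not tested.

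Blood vessels gave no call. None of 15 tested endothelial genes and none of 7 pericyte genes met the cutoffs, with medians of -0.21 and -0.11. Egfl7, secreted by endothelium and the most abundant of that list, was at 47.4, 62.9 and 89.4 FPKM in OC and 38.8, 44.2, 71.7 and 77.7 FPKM in OT (log2 fold change -0.21 ± 0.31 (SE)). Rgs5, a regulator of signalling in pericytes, was at 96.5, 166 and 161 FPKM in OC and 72.7, 81.02, 96.1 and 114 FPKM in OT (log2 fold change -0.61 ± 0.24 (SE), adjusted p = 0.57), with OC2 and OC3 above every OT uterus and OC1 among them.

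Of the 94 genes that fell, 6 were in any of the lists, against 55 of the 316 that rose. The 15 largest decreases without overlap were Acbd7, Sbspon, Pcyt1b, Tmprss11a, Cuzd1, Il13ra2, Rdh9, Col9a2, Ndp, Scube1, Khdc1a, Gzmf, Cndp1, Rorb and Angptl7. Ndp (chrX:16885521-16911774, minus strand), the secreted ligand norrin that activates a frizzled receptor, was at 5.07, 4.13 and 3.77 FPKM in OC and 0.788, 1.28, 1.302 and 1.21 FPKM in OT (log2 fold change -1.84 ± 0.26 (SE), adjusted p = 0.357). The 4 OT uteruses lay close together and far below the OC uteruses. Scube1, a secreted protein of a family that takes part in Hedgehog and growth factor signalling, was at 8.85, 6.38 and 5.52 FPKM in OC and 0.948, 2.28, 1.66 and 3.098 FPKM in OT (log2 fold change -1.83 ± 0.38 (SE), adjusted p = 0.357). Angptl7, an angiopoietin-like secreted protein, was at 65.8, 61.1 and 39.5 FPKM in OC and 9.09, 15.96, 20.1 and 24.05 FPKM in OT (log2 fold change -1.73 ± 0.34 (SE), adjusted p = 0.357), and it was the most abundant of the 15. Rorb, an orphan nuclear receptor, was at 12.4, 18.3 and 14.4 FPKM in OC and 1.82, 4.85, 5.201 and 7.69 FPKM in OT (log2 fold change -1.75 ± 0.43 (SE), adjusted p = 0.485). All 4 genes kept their call in all 7 fits, and in all 4 the lowest uterus was OT1.

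Others of the 15 were lower with more spread. Sbspon, a secreted protein with a thrombospondin domain, was at 30.2, 15.5 and 17.6 FPKM in OC and 0.883, 5.79, 10.2 and 6.4997 FPKM in OT (log2 fold change -2.18 ± 0.73 (SE), adjusted p = 0.55). Pcyt1b, an enzyme of phosphatidylcholine synthesis, was at 16.2, 7.16 and 9.43 FPKM in OC and 0.466, 2.72, 5.32 and 4.47 FPKM in OT (log2 fold change -2.05 ± 0.74 (SE), adjusted p = 0.55). For Sbspon, without OC1 the log2 fold change was -1.89 and the call was lost, and for Pcyt1b, without OC1 or OC3 the log2 fold change was between -2.12 and -1.73 and the call was lost. OC1 was the highest uterus in both. Cndp1, a dipeptidase that splits carnosine, was at 8.05, 6.42 and 5.85 FPKM in OC and 0.396, 4.195, 1.72 and 4.26 FPKM in OT (log2 fold change -1.75 ± 0.71 (SE), adjusted p = 0.596), and without OC1, OC2, OC3 or OT3 the log2 fold change was between -1.85 and -1.62 and the call was lost. Tmprss11a, a serine protease, was at 1.55, 3.49 and 2.85 FPKM in OC and 0.508, 0.283, 0.633 and 1.099 FPKM in OT (log2 fold change -1.95 ± 0.47 (SE)). Rdh9, a retinol dehydrogenase, was at 1.64, 0.969 and 1.34 FPKM in OC and 0.203, 0.488, 0.143 and 0.418 FPKM in OT (log2 fold change -1.84 ± 0.49 (SE)). It was below the filter limit in every OT uterus and passed only through OC values, which fixes the direction of its mean. Khdc1a was at 4.66, 3.01 and 4.03 FPKM in OC and 0.671, 0.787, 1.98 and 1.14 FPKM in OT (log2 fold change -1.77 ± 0.38 (SE)). These 3 kept their calls in all 7 fits, and OT4 was the highest OT uterus for Tmprss11a, OT2 for Rdh9 and OT3 for Khdc1a.

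The other 4 were at low levels. Acbd7 was at 2.93, 1.07 and 1.09 FPKM in OC and 0, 0.334, 0 and 0.604 FPKM in OT, and without OC1 the log2 fold change was -2.33 and the call was lost. Cuzd1 was at 1.59, 0.731 and 0.9004 FPKM in OC and 0.0535, 0.0618, 0.291 and 0.711 FPKM in OT, and without OC1, OC3 or OT2 the log2 fold change was between -1.99 and -1.61 and the call was lost. Col9a2, a chain of collagen IX, was at 2.39, 1.26 and 1.11 FPKM in OC and 0, 0.474, 0.597 and 0.889 FPKM in OT, and without OC1, OC2, OC3, OT2 or OT3 the log2 fold change was between -2.06 and -1.52 and the call was lost. Gzmf, granzyme F of decidual NK cells, was at 1.36, 2.96 and 1.74 FPKM in OC and 0.132, 0.933, 0.359 and 1.01 FPKM in OT, and without OC2 the log2 fold change was -1.47 and the call was lost. At these levels a small difference in FPKM is a large difference on the log2 scale, and with a pseudocount of 1 in place of 0.1 the count of lower genes was 57.

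**Figure D5:**
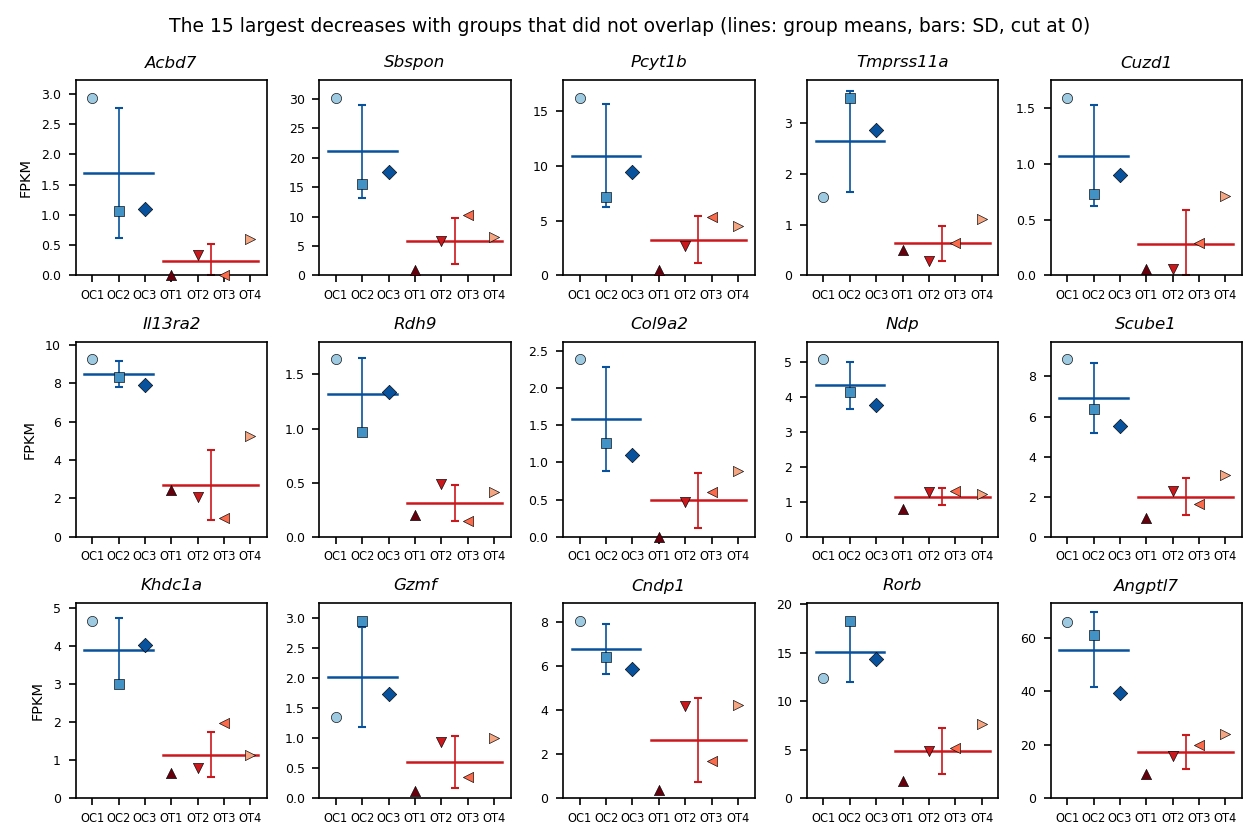
FPKM (linear axes from 0) of the 15 genes with the largest decrease among called genes whose groups did not overlap, in the 3 OC and 4 OT uterus libraries, with group means (lines) and SD (bars). Ndp was between 0.788 and 1.30 FPKM in the OT uteruses and between 3.77 and 5.07 FPKM in the OC uteruses.

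Some further lower genes were chosen after their values were seen, to show what the other decreases were. Gdf7, a bone morphogenetic protein, was at 58.9, 50.1 and 51.5 FPKM in OC and 7.31, 23.3, 30.2 and 33.5 FPKM in OT (log2 fold change -1.38 ± 0.48 (SE), adjusted p = 0.55). Lef1, the nuclear partner of beta-catenin, was at 3.896, 3.87 and 4.13 FPKM in OC and 0.544, 1.00002, 2.19 and 3.22 FPKM in OT (log2 fold change -1.41 ± 0.53 (SE), adjusted p = 0.564). The groups did not overlap in either gene, and OT4 was nearest to the OC uteruses in both. For Gdf7, without OC1 or OT1 the log2 fold change was between -1.31 and -0.89 and the call was lost, and for Lef1, without OC1, OC2, OC3, OT1 or OT2 the log2 fold change was between -1.43 and -0.9994 and the call was lost. Tmem100, a membrane protein that BMP signals induce in endothelium, was at 44.9, 77.3 and 71.7 FPKM in OC and 25.6, 22.8, 23.6 and 40.6 FPKM in OT (log2 fold change -1.20 ± 0.26 (SE), adjusted p = 0.396). Map2, a microtubule protein known from neurons, was at 23.9, 27.2 and 23.1 FPKM in OC and 3.07, 6.598, 7.23 and 22.4 FPKM in OT (log2 fold change -1.69 ± 0.56 (SE), adjusted p = 0.55). OT4 lay just below the OC uteruses and the other OT uteruses far below. Syn2, a synapsin, was at 16.1, 11.4 and 10.8 FPKM in OC and 2.43, 2.42, 7.34 and 6.57 FPKM in OT (log2 fold change -1.59 ± 0.44 (SE), adjusted p = 0.495). Gria4, a glutamate receptor subunit, was at 7.84, 10.6 and 9.94 FPKM in OC and 2.43, 2.39, 3.93 and 5.83 FPKM in OT (log2 fold change -1.44 ± 0.32 (SE), adjusted p = 0.396). Tmem100, Map2, Syn2 and Gria4 kept their calls in all 7 fits.

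Some enzymes, also chosen after their values were seen, were lower. Hdc, which makes histamine and is active in the uterus around implantation, was at 184, 58.6 and 32.2 FPKM in OC and 10.3, 30.9, 31.1 and 27.3 FPKM in OT (log2 fold change -1.62 ± 0.61 (SE), adjusted p = 0.569). OC1 was far above the other uteruses, and without OC1 or OT1 the log2 fold change was between -1.24 and -0.92 and the call was lost. Arg2, a mitochondrial arginase, was at 19.1, 12.8 and 12.97 FPKM in OC and 3.58, 8.53, 3.82 and 9.54 FPKM in OT (log2 fold change -1.33 ± 0.38 (SE), adjusted p = 0.516) and kept its call in all 7 fits. Maob, a monoamine oxidase, was at 34.8, 31.8 and 28.5 FPKM in OC and 23.4, 11.9, 14.8 and 13.9 FPKM in OT (log2 fold change -1.03 ± 0.23 (SE), adjusted p = 0.396), and without OC1, OT2 or OT4 the log2 fold change was between -0.98 and -0.90 and the call was lost. Cyp11a1, the enzyme that starts steroid synthesis, was at 2.73, 3.31 and 2.31 FPKM in OC and 0.719, 2.53, 1.44 and 0.665 FPKM in OT (log2 fold change -1.18 ± 0.46 (SE), adjusted p = 0.573), a low level at which OT2 lay among the OC uteruses, and without OC1, OC2, OC3, OT1 or OT4 the log2 fold change was between -1.30 and -0.94 and the call was lost. The largest decrease among the 94 belonged to a gene whose groups overlapped, Fam220a, at 12.1, 11.1 and 7.65 FPKM in OC and 15.3, 0.0201, 0.0118 and 0.0906 FPKM in OT (log2 fold change -4.52 ± 1.62 (SE)), with OT1 above every OC uterus. A second gene identifier of this symbol spans the same locus, chr5:143548706-143564531, and was called higher (log2 fold change 1.57 ± 0.38 (SE)), so fragments may have been assigned to either and this decrease is uncertain.

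The 10 largest increases were Krt5, Krt6a, Krt13, Sptssb, Sprr1a, Krt15, Krt14, Apoc1, Slc7a10 and Ces1f, of which 6 are squamous genes. Sptssb, a subunit of the enzyme that starts sphingolipid synthesis, was at 0.0917, 0 and 0 FPKM in OC and 40.6, 1.15, 4.58 and 2.18 FPKM in OT (log2 fold change 5.28 ± 1.08 (SE), adjusted p = 0.357). Apoc1, an apolipoprotein, was at 0, 3.68 and 2.62 FPKM in OC and 122, 24.04, 17.99 and 14.05 FPKM in OT (log2 fold change 4.87 ± 1.29 (SE), adjusted p = 0.485). Ces1f, a carboxylesterase, was at 0, 0.141 and 0.146 FPKM in OC and 30.97, 2.69, 3.504 and 2.05 FPKM in OT (log2 fold change 4.81 ± 0.91 (SE), adjusted p = 0.357). OT1 was by far the highest in these 3, which were in no list, and the other OT uteruses also lay above the OC uteruses. Sptssb and Ces1f were below the filter limit in every OC uterus. They passed only through OT values, which fixes the direction of their mean. All 10 kept their calls in all 7 fits.

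The ovaries of both groups were fitted together with the uteruses to ask whether the difference between AMSC-CM and saline was the same in both organs. The 14 libraries entered as separate samples, since the sources used here do not say which ovary and uterus came from one mouse. Over 14151 genes no difference passed an adjusted p of 0.05, the smallest adjusted p being 0.337 by limma. The uterus difference that named the genes below is 1 term of this contrast, so their values are a description. The log2 fold change of Krt5 was -0.67 ± 0.91 (SE) in the ovary, and the uterus exceeded it by 6.90 ± 1.29 (SE), adjusted p = 0.351. Ndp was 0.07 ± 0.28 (SE) in the ovary and differed by -1.91 ± 0.40 (SE), adjusted p = 0.587, and Gli1 was 0.06 ± 0.30 (SE) and differed by -1.34 ± 0.42 (SE), adjusted p = 0.839. For Adipoq the ovary value was 1.70 ± 0.73 (SE) and the difference 1.95 ± 1.03 (SE), adjusted p = 0.839, with both organs on the higher side. Cuzd1 was 1.55 ± 0.67 (SE) in the ovary, opposite in sign to the uterus, and differed by -3.46 ± 0.95 (SE), adjusted p = 0.839.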

How the data were processed

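RNA-seq libraries of whole uterine tissue were made by the authors with a stranded total RNA kit after removal of ribosomal RNA. Per the labels and the methods, the authors trimmed reads, aligned them with STAR 2.5 to mm10 and computed FPKM per gene with Cufflinks 2.2.1, and the deposited FPKM carry no fragment counts, so the depth behind a value is unknown and no counting interval is given. The authors' own test, Cuffdiff, needs reads and was not run. Here 3 OC and 4 OT uteruses, grouped by their titles, were compared with limma 3.58.1 (R 4.3.3, eBayes with trend) on log2(FPKM + 0.1), after a filter of a mean of 0.5 FPKM, and Benjamini-Hochberg adjustment ran over all tested genes. Fold changes are on this scale, which understates changes of low genes. A gene was called at an absolute log2 fold change of 1 with an unadjusted p of 0.05. The fit was checked on simulated data. Gene positions came from GENCODE M21 (GRCm38, the same assembly as mm10), to which all 21853 identifiers matched, and promoters from RefSeq (GRCm38.p6). Genes named were, per list, up to 3 called members with the largest change and the most abundant tested member, the 10 largest increases and 15 largest decreases among called genes whose groups did not overlap, and Cat, Adipoq and Klb. Others are marked as chosen after their values were seen, or are further members of the lists, chosen likewise. The members, lists, motifs and named genes were chosen with earlier results of these data known. Alternatives were the pseudocount, the filter, scaling, robust eBayes, a replicate block, a fit of all 14 libraries and leaving out each library. Tables and figures were made with matplotlib 3.10.9, pandas 2.3.3 and numpy 2.4.6 in Python 3.11.15. A few results on single genes are not reported here.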

Additional observations from a re-analysis of the deposited data

Results flagged for a closer look

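Within the OT uteruses, 5 of 109 sets of 4 values held a sample far from the other 3, by the 95% limit of Dixon's ratio of gap to range, and chance flags about 1 in 20 such sets. The summed FPKM of the brown fat list was 765.405 in OT1, against 27.2 to 47.7 FPKM in the other OT uteruses. Agpat2, an enzyme of triglyceride synthesis, was at 269.506 FPKM in OT1, against 21.9 to 31.6 FPKM in the others. Ndp was at 0.787925 FPKM in OT1, below 1.21 to 1.30 FPKM in the others, and all 4 lay below the OC uteruses. Ms4a1 was at 5.9895 FPKM in OT2, against 0.422 to 0.547 FPKM in the others. The summed FPKM of collagen and matrix genes was 8048.87 in OT3, against 6136 to 6309.9 FPKM in the others. OT1 was the far sample in 3 of the 5 sets.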

How the results depend on the processing

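The deposited FPKM hold no counts, so limits of depth cannot be set. The count of called genes depended on the low end of the scale and on single libraries. A pseudocount of 1 gave 202 higher and 57 lower genes in place of 316 and 94, no filter gave 152 lower genes, and a filter of a mean of 2 FPKM gave 61. Leaving out 1 library gave 251 to 414 higher genes and 53 (without OT1) to 188 (without OT4) lower genes. Without OT3 and OT4, an alternative added after the data had been seen, 518 genes were higher and 296 lower, with list medians of 0.85 for granulocytes and mast cells, 0.72 for basal squamous epithelium and -0.35 for stroma. The count at an adjusted p under 0.05 was 47 in the fit of all 14 libraries, which shares 1 estimate of the spread with the ovaries, and 0 to 2 without 1 library, the 2 (Fam220a and Acp5) being those without OT1. The stromal median of -0.25 was -0.31 at the filter of 2 FPKM, -0.36 after quantile normalization, -0.37 after scaling to the total outside the fat, squamous and urothelium lists, and -0.30 to -0.15 without 1 library. The median of the upper squamous list was 1.26 with a pseudocount of 1 and 4.85 with 0.01. The cause of these shifts was not tested. The same replicate number in OC and OT marks different mice, and same-numbered uteruses did not deviate together (correlations of 0.08, 0.001 and -0.03), so they are not paired. With the replicate block, which also leaves out OT4, 427 genes were higher and 239 lower, and the stromal median was -0.30. Without OT4 and with no block, 414 were higher and 188 lower. Among the 76 named genes, none of the 50 called ones turned in direction under any of 19 alternatives. Over the named genes and all alternatives, 1324 values kept their side of the cutoffs, 98 lost the call and 12 gained it.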

Other observations

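Genes of the cell cycle gave no call. Of 20 tested genes 16 were above 0 on the log2 scale, the median log2 fold change was 0.15, and the summed FPKM was 130.4 to 175 in OC and 140.6 to 194 in OT. Pcna, the sliding clamp of DNA synthesis, was at 28.3, 26.3 and 24.5 FPKM in OC1 to OC3 and at 56.9, 36.8, 27.6 and 24.7 FPKM in OT1 to OT4 (log2 fold change 0.39 ± 0.27 (SE)). Top2a, a topoisomerase of dividing cells, had a log2 fold change of -0.26 and Mki67, the proliferation marker Ki-67, of 0.01. None of 14 interferon-stimulated genes was called, with a median of -0.20, and none of 13 immediate early genes, with a median of 0.28. Among the latter Fos, a part of the AP-1 factor, was at 47.3 FPKM in OT1 and between 2.96 and 12.7 FPKM in the other 6 uteruses. None of 19 collagen and matrix genes was called, with a median of 0.15.

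Haemoglobin RNA was highest in OT1, where the sum of the 6 listed red blood cell genes was 1233 FPKM. This sum was 137 to 284 FPKM in OC and 179 to 445 FPKM in the other OT uteruses. None of the 5 tested genes was called. Ovgp1, oviductin, made in the oviduct and uterus, had a log2 fold change of -1.61 and was not called, nor was any other of 6 genes of ciliated and oviduct cells. None of 6 skeletal muscle genes was called, with a median of 0.25.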
